A study of Mus musculus with 10 samples.

Results

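Transcripts of 9 genes of retinoid synthesis, binding and breakdown were followed in S1BF, the whisker region of primary somatosensory cortex, of 17-day-old C57BL/6 mice. The genes were Rbp4, Rdh10, Dhrs3, Aldh1a1, Aldh1a2, Aldh1a3, Crabp1, Crabp2 and Cyp26b1, found by their symbols among 52636 genes in the count table, each under 1 gene ID. All 9 passed the low-count filter that left 18455 genes for testing. The 10 RNA sequencing libraries came from 3 genotypes that all carried the floxed Rxra allele Rxratm1Krc/J. The cKO mice (n = 4) carried Nex-cre and a conditional knockout of Rxra, the Hetero mice (n = 2) carried Nex-cre and the heterozygous conditional knockout, and the Loxp mice (n = 4) carried the floxed allele without a named Cre. Nex-cre expresses Cre from the Neurod6 locus, which is active in excitatory cortical neurons, so the glia, vessels, meninges and interneurons of the same tissue lie outside its main reach. Whether the libraries stem from separate animals is not stated, and p-values then cover only the spread among these samples, which may be technical.

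Retinoic acid is made from vitamin A inside the cell. Retinol is carried in blood by RBP4, oxidised to retinal by RDH10, and retinal is turned irreversibly into retinoic acid by the ALDH1A enzymes, while DHRS3 turns retinal back into retinol. CRABP proteins hold retinoic acid in the cytosol, CYP26 enzymes break it down, and the remainder reaches nuclear receptors of the RAR family, which bind DNA as pairs with an RXR such as the product of Rxra. In the developing brain the meninges are a known source of retinoic acid, and Dhrs3 and Cyp26 genes are known to be induced by it.

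Library totals ran from 19332990 to 26086337 counts, and levels are given as CPM, a gene's share of the scaled library total. Rxra averaged 30.7 ± 1.74 CPM in cKO, 24.8 ± 2.26 CPM in Hetero and 26.5 ± 4.43 CPM in Loxp (SD, n = 4, 2 and 4), and the whole-gene count does not check the deletion. Neurod6, where Cre is inserted, averaged 29.5 ± 7.29 CPM in cKO, 34.2 ± 0.278 CPM in Hetero and 54.8 ± 14.0 CPM in Loxp (SD, n = 4, 2 and 4). Markers of excitatory cortical neurons were strong in every library, at a summed 5315 to 6510 CPM over 6 genes. Hetero 2 held 746 CPM over 8 choroid plexus genes, against 3.67 to 23.7 CPM in the other 9 libraries. cKO 2 and Loxp 2 held 218 and 229 CPM over 6 striatal projection neuron genes, where the other 8 libraries held 415 to 906 CPM. In cKO 2 the 11 meningeal fibroblast genes summed to 89.7 CPM, where the other 9 libraries held 153 to 238 CPM.

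Per length, Aldh1a1 and Rbp4 were the most abundant of the 9 transcripts, and Aldh1a3 the least. In FPKM (the deposited measure of counts per transcript length and library size) over all 10 libraries, Aldh1a1 ranged from 5.99 to 14.3 with a median of 11.5, and Rbp4 from 7.57 to 13.9 with a median of 10.2. These 2 ranges overlapped almost wholly. Dhrs3 followed at 3.22 to 5.20 FPKM, below every library of Rbp4 and Aldh1a1. Cyp26b1 at 1.72 to 3.20 FPKM and Rdh10 at 2.03 to 2.66 FPKM overlapped each other just below the range of Dhrs3. Aldh1a2 at 0.208 to 1.499 FPKM, Crabp1 at 0.348 to 1.08 FPKM, Crabp2 at 0.0973 to 1.27 FPKM and Aldh1a3 at 0.0541 to 0.696 FPKM formed the lowest tier and overlapped one another. Within that tier, counts per library were few, from 6 to 80 for Aldh1a2, Aldh1a3 and Crabp1 and from 3 to 35 for Crabp2. Library to library, Rdh10 was the steadiest, its highest CPM being 1.31 times its lowest, while the ratio was 7.19 for Aldh1a2, 12.9 for Aldh1a3 and 13.0 for Crabp2. Each of the 9 genes had an edgeR adjusted p = 1 in each of the 3 genotype comparisons, so no difference between genotypes described here passed the test across all genes.

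Rbp4 (chromosome 19, 38116629 to 38125281, GRCm38), the plasma carrier of retinol and in mouse cortex a known marker of layer 5 neurons, had CPM of 12.8, 9.89, 15.1 and 11.8 in cKO, 14.9 and 14.8 in Hetero, and 18.2, 10.2, 13.8 and 12.6 in Loxp. Loxp 1 was the highest library and cKO 2 and Loxp 2 the lowest, and the groups overlapped. Its log2 fold change was −0.14 (SE 0.167, 95% interval −0.50 to 0.22) for cKO against Loxp. For Hetero against Loxp it was 0.12 (SE 0.204).

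Rdh10 (chromosome 1, 16105774 to 16133734), the retinol dehydrogenase that makes retinal, had CPM of 10.2, 11.1, 10.3 and 10.1 in cKO, 8.48 and 9.98 in Hetero, and 10.4, 11.1, 9.04 and 9.61 in Loxp. Every cKO library lay above both Hetero libraries by a small margin, and cKO and Loxp overlapped. Rdh10 had a log2 fold change of 0.059 (SE 0.111, 95% interval −0.18 to 0.30) in cKO against Loxp, the narrowest interval among the 9 genes in that comparison. Dhrs3 (chromosome 4, 144892827 to 144928209), the reductase that returns retinal to retinol, had CPM of 12.7, 10.8, 14.0 and 15.2 in cKO, 11.9 and 15.3 in Hetero, and 15.1, 9.52, 12.9 and 14.5 in Loxp. The 3 groups overlapped for Dhrs3, and cKO against Loxp gave a log2 fold change of 0.019 (SE 0.156, 95% interval −0.32 to 0.36), which was −0.10 without Loxp 2 and 0.10 without cKO 2.

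Of the 3 enzymes that make retinoic acid, Aldh1a1 carried most of the transcript. It held 82.3% to 94.1% of their summed FPKM in each library (median 89.7%), against 3.27% to 12.1% for Aldh1a2 and 0.371% to 5.61% for Aldh1a3. Aldh1a1 (chromosome 19, 20492715 to 20643465) had CPM of 58.4, 29.8, 55.9 and 65.1 in cKO, 49.2 and 50.8 in Hetero, and 60.7, 58.2, 55.7 and 70.9 in Loxp. The other 3 cKO libraries lay within the Loxp range and cKO 2 stood far below it, while the 2 Hetero values were both under the Loxp range. The cKO against Loxp log2 fold change was −0.23 (SE 0.180, 95% interval −0.62 to 0.16) and −0.034 without cKO 2. Hetero stood at −0.30 against Loxp (SE 0.224), and the exact two-sided permutation test gave p = 0.133, where 15 arrangements allow no less than 0.0667. The authors' deposited table gave an adjusted p = 1 for each of the 9 genes in cKO and in Hetero against Loxp, with Aldh1a1 in Hetero at the smallest unadjusted p of the 18 (0.0212). An RNA of the opposite strand, C730002L08Rik, and a processed pseudogene on that strand overlap Aldh1a1, another pseudogene of the opposite strand overlaps Aldh1a2, and the labels do not say whether strand was used in counting.

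Aldh1a2 (chromosome 9, 71215789 to 71296243), the ALDH1A enzyme of the meninges, had CPM of 3.15, 0.475, 1.91 and 3.14 in cKO, 3.22 and 3.42 in Hetero, and 3.03, 2.01, 2.36 and 2.91 in Loxp. The 2 Hetero values topped all others, and cKO 2, with 11 counts, was far below the next library. For cKO against Loxp the log2 fold change was −0.25 (SE 0.390, 95% interval −1.09 to 0.59), and 0.085 without cKO 2. Hetero stood at 0.36 against Loxp (SE 0.466). The summed meningeal markers were at 175, 89.7, 181 and 191 CPM in cKO, 208 and 238 CPM in Hetero, and 188, 183, 175 and 153 CPM in Loxp. The lowest and the 2 highest libraries of that list were thus those of Aldh1a2 as well, with no marker at 0, and the part of meningeal RNA in these values was not tested. In whole tissue, fewer cells of a type and less RNA per cell cannot be told apart.

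Aldh1a3 (chromosome 7, 66390890 to 66427517), the least abundant of these enzymes here, had CPM of 1.14, 0.777, 0.973 and 0.251 in cKO, 1.63 and 3.24 in Hetero, and 1.93, 2.01, 1.34 and 0.439 in Loxp. The cKO libraries lay below 3 of the 4 Loxp libraries and below both Hetero libraries, Loxp 4 lay within the cKO range, and Hetero 2 stood above all others. Group means were 0.786 ± 0.387 CPM in cKO, 2.44 ± 1.13 CPM in Hetero and 1.43 ± 0.724 CPM in Loxp (SD, n = 4, 2 and 4). The log2 fold change of cKO against Loxp was −0.84 (SE 0.479, 95% interval −1.87 to 0.20), between −1.14 without Loxp 4 and −0.54 without cKO 4. That of Hetero against Loxp was 0.79 (SE 0.533), and 0.21 without Hetero 2. That of cKO against Hetero was −1.62 (SE 0.545, 95% interval −2.80 to −0.45), and −1.05 without Hetero 2.

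The cytosolic binding proteins were scarce. Crabp1 (chromosome 9, 54764748 to 54773110) had CPM of 0.867, 0.389, 0.662 and 0.376 in cKO, 0.511 and 0.405 in Hetero, and 0.819, 0.335, 0.629 and 0.279 in Loxp. The cKO and the Loxp libraries each split into 2 higher ones (numbers 1 and 3) and 2 lower ones (numbers 2 and 4), with Hetero in between. cKO against Loxp gave a log2 fold change of 0.17 (SE 0.428, 95% interval −0.76 to 1.09). Crabp2 (chromosome 3, 87948666 to 87953376) had CPM of 1.06, 0.130, 0.973 and 0.669 in cKO, 1.02 and 1.17 in Hetero, and 1.69, 0.239, 0.708 and 0.678 in Loxp. It was nearly absent from cKO 2 (3 counts) and Loxp 2 (5 counts) and highest in Loxp 1. For Crabp2 that log2 fold change was −0.20 (SE 0.558, 95% interval −1.40 to 1.0), ranging from −0.50 without Loxp 2 to 0.37 without Loxp 1.

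Cyp26b1 (chromosome 6, 84571414 to 84593908), the enzyme that clears retinoic acid in brain, had CPM of 11.1, 10.4, 14.5 and 9.24 in cKO, 17.0 and 15.4 in Hetero, and 17.2, 11.7, 13.6 and 9.69 in Loxp. Both Hetero libraries lay above every cKO library, while Loxp overlapped both. Means were 11.3 ± 2.26 CPM in cKO, 16.2 ± 1.12 CPM in Hetero and 13.1 ± 3.22 CPM in Loxp (SD, n = 4, 2 and 4). cKO stood at a log2 fold change of −0.20 against Loxp (SE 0.176, 95% interval −0.58 to 0.17), and at −0.044 without Loxp 1. Hetero stood at 0.31 against Loxp (SE 0.212). cKO stood at −0.52 against Hetero (SE 0.211, 95% interval −0.97 to −0.060).

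Receptor pairs of RAR and RXR bind repeats of a short half-site, so the bases before the start sites of the members were read. RefSeq windows on GRCm38.p6 were at hand for 6 of the 9 genes, 10 windows in all, of which the 250 bases before each start were searched, on both strands for half-sites. The half-site AGGTCA or its variants AGTTCA or else GGTTCA or else GGGTCA occurred at least once in 38.6% of 32851 such windows of all genes, a direct repeat of any 2 of them spaced by 5 bases in 0.0883%, by 2 bases in 0.174% and by 1 base in 0.164%. TATAAA, searched on the gene's own strand, occurred in 7.59%. Among the 10 windows of the members, 2 held a half-site (1 of Aldh1a1 and 1 of Rbp4), 2 held TATAAA (Cyp26b1 and another window of Rbp4), and 0 held a direct repeat. Shown are the windows of the most abundant synthetic enzyme, of the meningeal one and of the degrading enzyme, without bases in annotated exons, with in capitals TATAAA or the half-site, which in Aldh1a1 is read on the minus strand and so shows as the reverse complement of GGGTCA. A match is a run of letters and not a binding site, and a window without one says nothing of sites elsewhere.
Aldh1a1 (chr19:20601718-20601960, plus strand): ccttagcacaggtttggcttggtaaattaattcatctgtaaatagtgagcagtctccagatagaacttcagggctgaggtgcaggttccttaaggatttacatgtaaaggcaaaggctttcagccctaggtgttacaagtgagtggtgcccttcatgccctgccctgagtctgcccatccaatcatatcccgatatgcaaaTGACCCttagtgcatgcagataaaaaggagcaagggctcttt
Aldh1a2 (chr9:71215539-71215788, plus strand): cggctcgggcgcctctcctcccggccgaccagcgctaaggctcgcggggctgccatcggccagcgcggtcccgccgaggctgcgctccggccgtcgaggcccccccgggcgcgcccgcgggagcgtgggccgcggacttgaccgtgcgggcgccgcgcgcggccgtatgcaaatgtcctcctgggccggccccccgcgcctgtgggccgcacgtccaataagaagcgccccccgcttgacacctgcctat
Cyp26b1 (chr6:84593909-84594060, minus strand): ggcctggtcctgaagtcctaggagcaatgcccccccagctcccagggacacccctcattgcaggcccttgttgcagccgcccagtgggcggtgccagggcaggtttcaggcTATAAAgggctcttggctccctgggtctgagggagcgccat
Aldh1a1 has its half-site 49 bases before the RefSeq start, and TATAAA of Cyp26b1 lies 139 bases before its RefSeq start. Between TATAAA and that start of Cyp26b1, 98 bases lie in annotated exons and are not shown. The window of Aldh1a2 held none of these motifs and was rich in G and C (77.6%). That of Aldh1a1 had 46.4% and that of Cyp26b1 64.8%, each over all 250 bases with those in exons.

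**Figure D1:**
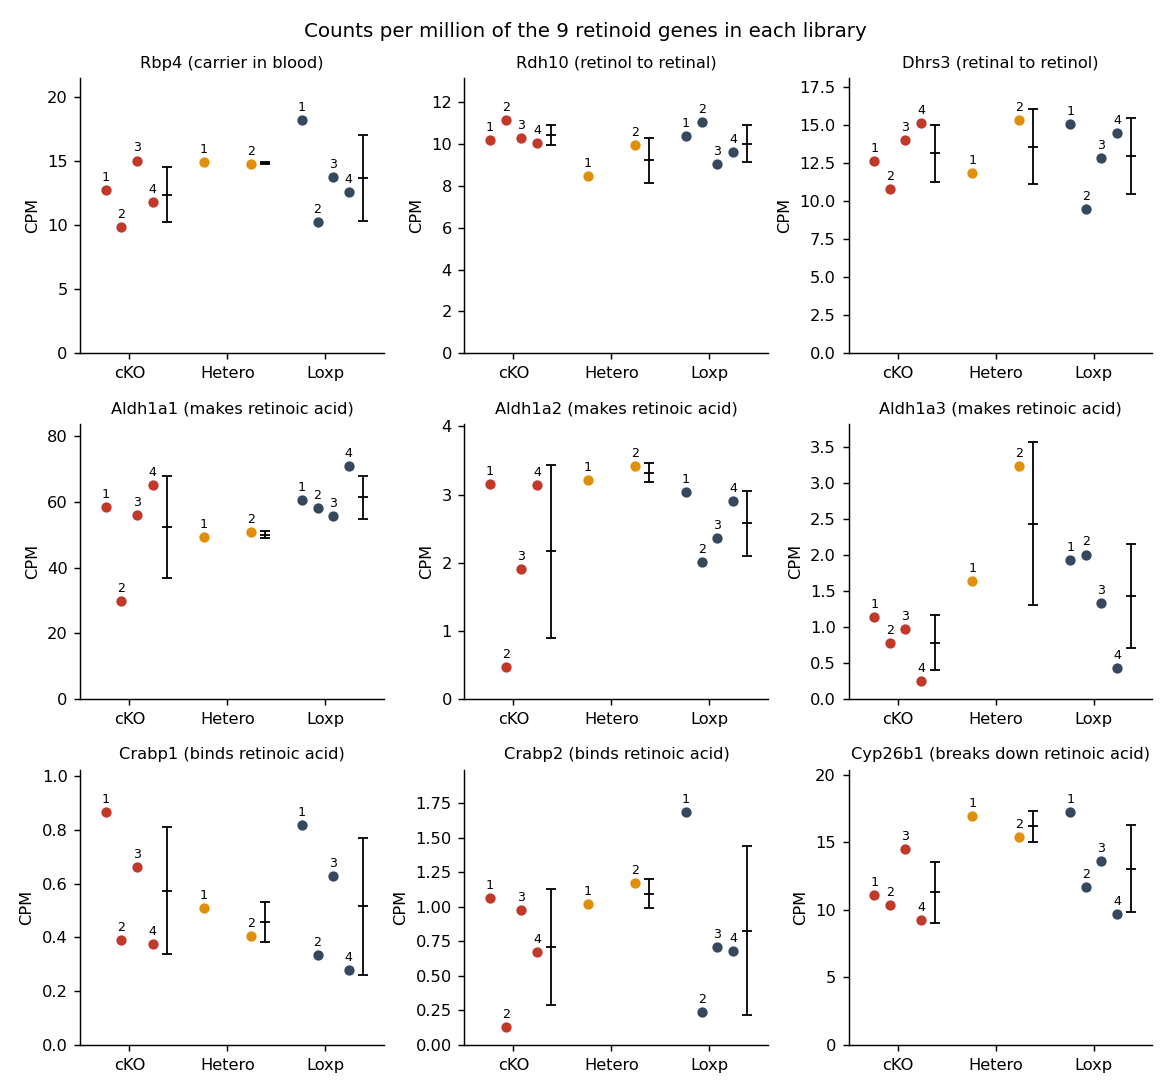
CPM (vertical axis from 0) of each of the 9 genes in the cKO, Hetero and Loxp libraries, with the replicate number above each point and the group mean ± SD as a black bar. cKO 2 is the lowest library for Aldh1a1 (29.8 CPM), Aldh1a2 (0.475 CPM) and Crabp2 (0.130 CPM), and the cKO and Loxp points overlap in every panel.

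The comparison of cKO with Loxp asked whether loss of Rxra from excitatory neurons, with Cre present in one group only, goes with other levels of retinoid metabolism transcripts. Rdh10, Dhrs3 and Crabp1 were higher and the other 6 lower, where 49.9% of all genes were lower. The median log2 fold change was −0.20, beside 0.00033 over all genes tested. None of the 9 passed an edgeR adjusted p of 0.05, where 0% of 18455 genes did, and DESeq2 and limma-voom also called 0 of the 9 in any comparison. In the edgeR fit without a replicate block, 0 members had an unadjusted p under 0.05, against 2.53% of all genes. Groups did not overlap for 0 members, against 1.54% of all genes. Set beside the Loxp library of its own number, each cKO library was lower for Aldh1a3 and higher for Crabp1. The other members went both ways, and the value of Aldh1a3 with a replicate block is given below. The 95% intervals kept the change of Rdh10 within 0.30, of Dhrs3 within 0.36 and of Rbp4 within 0.50 on the log2 scale in either direction. They were much wider for Crabp2, Crabp1, Aldh1a3 and Aldh1a2, whose counts were few. The exact two-sided permutation tests of the 9 genes gave p between 0.286 and 0.914, with 0.0286 the least that 70 arrangements allow. In the same comparison 10 of 11 meningeal fibroblast markers (median log2 fold change −0.17) were lower in cKO. So were all 6 oligodendrocyte (median −0.19) and all 6 striatal projection neuron markers (median −0.16). Higher were 5 of 6 astrocyte (median 0.058) and 5 of 6 microglia markers (median 0.053). Within each of these lists 0 markers had groups that did not overlap. The part of these lists in the values of the members was not tested.

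In Hetero against Loxp, which adds Nex-cre and deletes 1 allele, Rbp4, Dhrs3, Aldh1a2, Aldh1a3, Crabp2 and Cyp26b1 were higher and Rdh10, Aldh1a1 and Crabp1 lower, where 51.8% of all genes were lower. The median log2 fold change was 0.12, beside −0.0068 over all genes tested. None passed an edgeR adjusted p of 0.05 (0% of all genes did) and 0 had an unadjusted p under 0.05, against 2.54% of all genes. The groups did not overlap for 2 members, Aldh1a1 (lower) and Aldh1a2 (higher), where 11.4% of all genes did not overlap, 5.77% lower and 5.64% higher. Beside these members, all 6 oligodendrocyte markers (median log2 fold change −0.23) and all 6 striatal projection neuron markers (median −0.34) were lower in Hetero. In both lists 0 markers had groups that did not overlap. Of 6 microglia markers 5 were lower (median −0.15) and 5 had groups that did not overlap. Lower were also 5 of 6 astrocyte (median −0.091) and 6 of 8 endothelial and pericyte markers (median −0.066). The oligodendrocyte sum was 9325 CPM in Hetero 1 and 6408 CPM in Hetero 2, against 8392 to 10572.5 CPM in Loxp. Higher in Hetero were 9 of 11 meningeal fibroblast markers (median 0.22) and all 7 tested choroid plexus markers (median 2.94). So were 7 of 8 layer 5 markers (median 0.15). The part of these lists in the values of Aldh1a1 and Aldh1a2 was not tested. The Loxp libraries are shared with the comparison above.

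With Nex-cre in both groups, cKO against Hetero sets the full deletion beside the heterozygous one. Rdh10, Aldh1a1 and Crabp1 were higher in cKO and the other 6 lower, where 47.5% of all genes were lower. The median log2 fold change was −0.26, beside 0.0078 over all genes tested. None passed an edgeR adjusted p of 0.05, as did 0% of all genes. An unadjusted p under 0.05 was reached by 2 members, Aldh1a3 (0.0103) and Cyp26b1 (0.0294), both lower in cKO, against 1.74% of all genes in either direction and 0.764% lower. Groups did not overlap for Aldh1a2, Aldh1a3 and Cyp26b1, lower in cKO, and for Rdh10, higher in cKO, where 9.43% of all genes did not overlap, 4.54% lower and 4.9% higher. The minor synthetic enzymes Aldh1a2 and Aldh1a3 and the degrading enzyme Cyp26b1 lay below Hetero, with exact permutation p-values of 0.133 to 0.4. Aldh1a1, which held most of the ALDH1A transcript, overlapped Hetero and had a log2 fold change of 0.066 (SE 0.222). Only 2 Hetero libraries stand behind these values, and Hetero 2 is the library with choroid plexus transcripts. In the same comparison all 11 meningeal fibroblast markers (median log2 fold change −0.41) and all 7 tested choroid plexus markers (median −2.84) were lower in cKO. All 6 microglia (median 0.19), all 6 striatal projection neuron (median 0.14) and all 6 astrocyte markers (median 0.12) were higher. Of the striatal markers 0 had groups that did not overlap. Of 8 layer 5 markers 6 were lower (median −0.15) and 2 had groups that did not overlap. The part of all these lists in the lower Aldh1a2, Aldh1a3 and Cyp26b1 was not tested. Without Hetero 2, Cyp26b1 stood at −0.59 in cKO against Hetero.

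**Figure D2:**
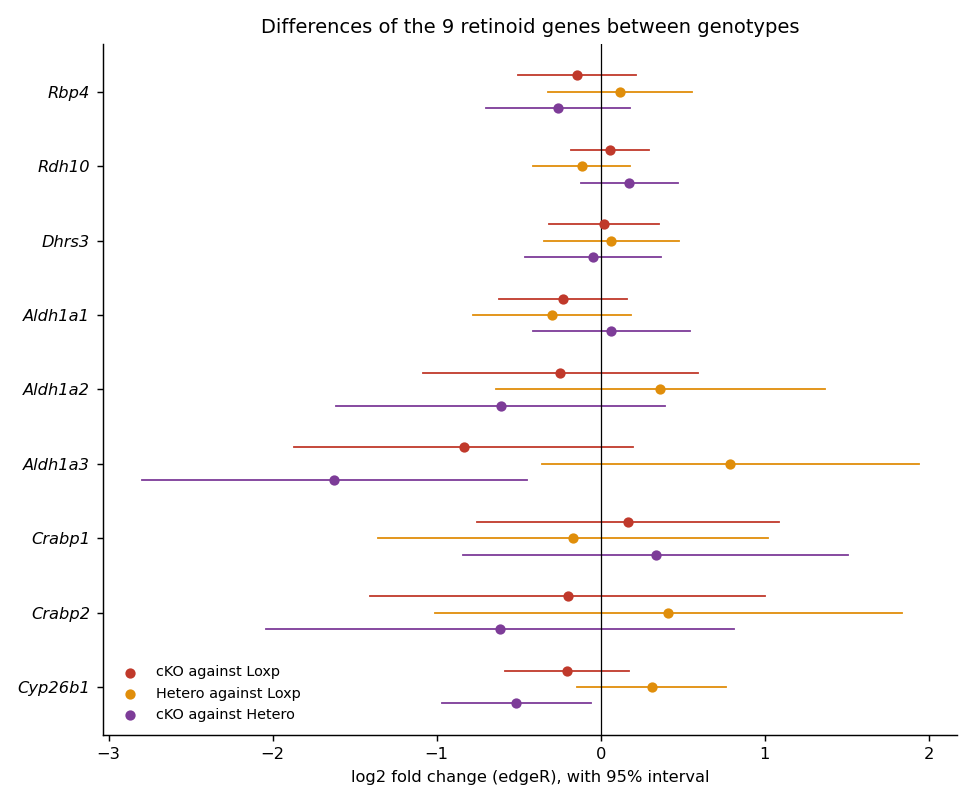
Log2 fold change (points) and 95% interval (lines) of each gene from edgeR for the 3 genotype comparisons, with positive values higher in the group named first. Every interval of cKO against Loxp and of Hetero against Loxp includes 0, and those of Aldh1a3 (−2.80 to −0.45) and Cyp26b1 (−0.97 to −0.060) in cKO against Hetero do not, before adjustment over all genes.

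Libraries of the same genotype differed across many members at once. cKO 2 was the lowest of all 10 libraries for 4 of the 9 genes (Rbp4, Aldh1a1, Aldh1a2 and Crabp2) and the highest for Rdh10, and it was among the lowest 3 for 7. Loxp 1 was the highest library for 3 genes (Rbp4, Crabp2 and Cyp26b1) and among the highest 3 for 8. Hetero 2 was the highest for 3 genes and among the highest 3 for 5, and cKO 4 and Loxp 2 were each among the lowest 3 for 5. Beside these values, cKO 2 also held fewer oligodendrocyte transcripts (5955 CPM summed over 6 genes, where the other 9 libraries held 6408 to 10572.5) and more astrocyte transcripts (1329 CPM over 6 genes, where the others held 949 to 1127). cKO 2 and Loxp 2 also shared low interneuron markers (649 and 664 CPM over 6 genes, where the other 8 libraries held 806 to 989.6) and high endothelial and pericyte markers (485 and 487 CPM over 8 genes, where the others held 285 to 372).

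**Figure D3:**
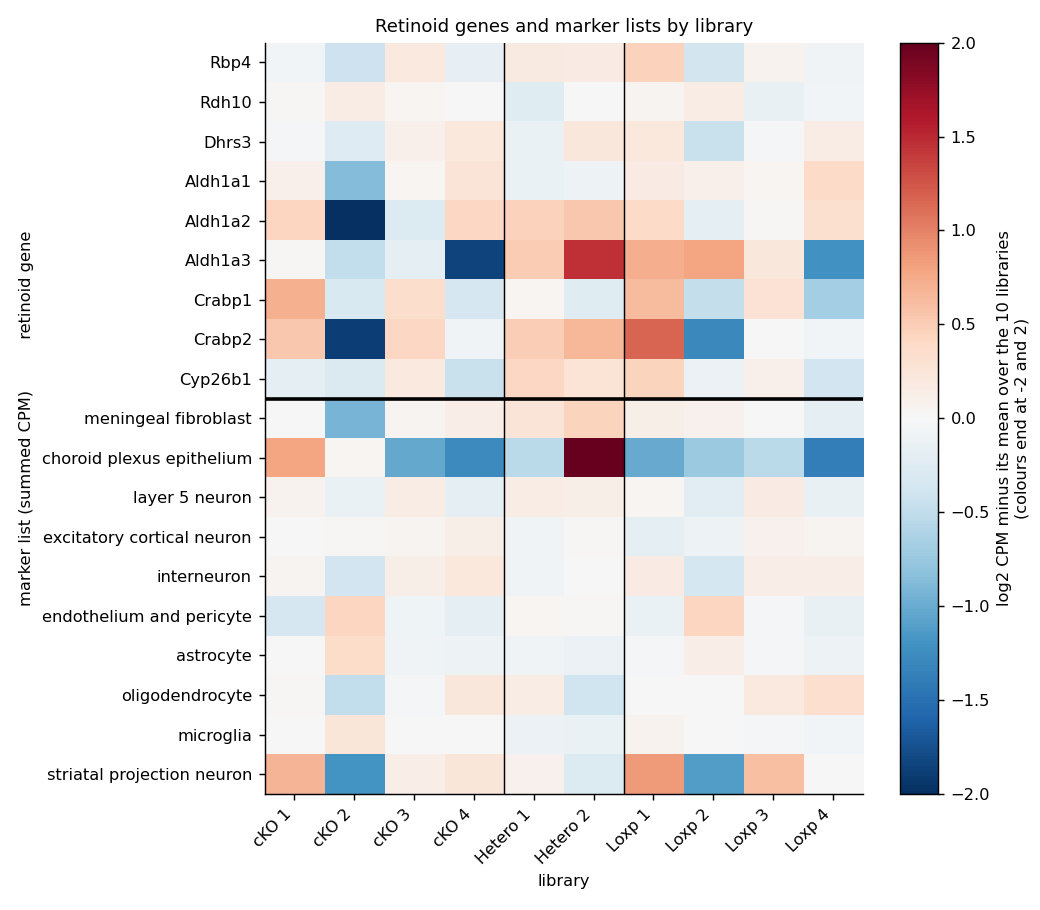
Colour gives log2 CPM minus its mean over the 10 libraries for the 9 retinoid genes (above the thick line) and for the summed CPM of 10 marker lists (below it), one column per library. cKO 2 is low for Aldh1a1, Aldh1a2 and Crabp2 and for meningeal, oligodendrocyte and striatal markers, and Hetero 2 is high for choroid plexus markers and Aldh1a3.

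Each gene was set against the summed level of 10 marker lists over the 10 libraries, 90 relations in all, and none passed a Benjamini-Hochberg adjusted p of 0.05 by Pearson's r or by Spearman's rho. Aldh1a2 followed the meningeal fibroblast list with r = 0.89 (permutation p = 0.0158, adjusted p = 0.114) and rho = 0.67 (permutation p = 0.0392, adjusted p = 0.309), but r was 0.15 without cKO 2 and Hetero 2, so it rests on those libraries. Aldh1a1 followed the oligodendrocyte list with r = 0.80 (permutation p = 0.00361, adjusted p = 0.114) and rho = 0.64 (permutation p = 0.0539, adjusted p = 0.309), and r was 0.47 without the same 2 libraries. Crabp2 followed the striatal list with r = 0.85 (permutation p = 0.00497, adjusted p = 0.114) and rho = 0.60 (permutation p = 0.0719, adjusted p = 0.36), and r was 0.30 without cKO 2 and Loxp 2, so these 2 relations also rest on few libraries. Rbp4 followed the layer 5 list with r = 0.74 (permutation p = 0.0149, adjusted p = 0.114) and rho = 0.67 (permutation p = 0.0393, adjusted p = 0.309), and r stayed at 0.63 without Loxp 2 and cKO 4. After each genotype's mean was removed, r was 0.88 for Aldh1a2, 0.75 for Aldh1a1, 0.93 for Crabp2 and 0.74 for Rbp4. These 4 relations were chosen from the 90 after their values were seen and are not the strongest of them. The largest r in size was that of Aldh1a2 with the astrocyte list (r = −0.92, permutation p = 0.00803, adjusted p = 0.114, and rho = −0.64, permutation p = 0.0537, adjusted p = 0.309), which was −0.26 without cKO 2 and Loxp 2. Dhrs3 with the interneuron list had the smallest p by Pearson (r = 0.87, permutation p = 0.00214, adjusted p = 0.114, and rho = 0.70, permutation p = 0.0301, adjusted p = 0.309), and r was 0.58 without the same 2 libraries. Rdh10 with the microglia list had the smallest by Spearman (rho = 0.87, permutation p = 0.00209, adjusted p = 0.188, and r = 0.69, permutation p = 0.03, adjusted p = 0.121), and r was 0.82 without cKO 2 and Hetero 2. Aldh1a2 with the microglia list gave r = −0.84 (permutation p = 0.0165, adjusted p = 0.114) and rho = −0.66 (permutation p = 0.0435, adjusted p = 0.309), and r was −0.19 without these 2. The layer 5 list was not particular to Rbp4. Cyp26b1 followed it with r = 0.77 (permutation p = 0.0178, adjusted p = 0.114) and rho = 0.58, and r was 0.75 without Loxp 2 and cKO 4. For Crabp1 and Crabp2 with that list r was 0.70 and 0.68. Rbp4 also followed the striatal list with r = 0.75 (permutation p = 0.0128, adjusted p = 0.114) and rho = 0.58, and r was 0.25 without cKO 2 and Loxp 2. Aldh1a1 also followed the interneuron list (r = 0.70, permutation p = 0.0235, adjusted p = 0.121, rho = 0.70), and r was 0.76 without these 2. It ran against the endothelium and pericyte list (r = −0.65, −0.63 without these 2) and the astrocyte list (r = −0.79, −0.12 without them). Crabp2 had r = 0.78 with the interneuron list and −0.84 with the astrocyte list, and −0.31 and 0.24 without these 2 libraries.

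**Figure D4:**
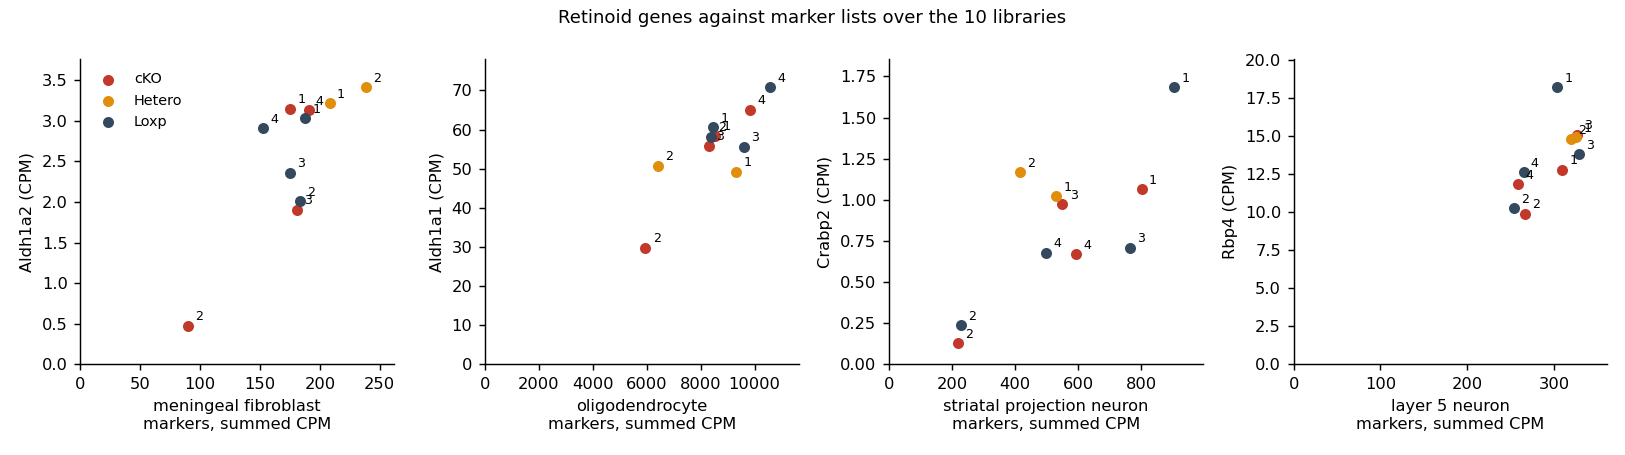
CPM of Aldh1a2, Aldh1a1, Crabp2 and Rbp4 (vertical axes) against the summed CPM of meningeal, oligodendrocyte, striatal and layer 5 markers (horizontal axes), with 1 point per library, labelled by replicate number. cKO 2 lies far from the other libraries in the panel of Aldh1a2 (0.475 CPM, with 89.7 CPM of meningeal markers) and in that of Aldh1a1 (29.8 CPM), and cKO 2 and Loxp 2 lie together at the low end of the panel of Crabp2.

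The genes most like each member over the 10 libraries, by Pearson's r of log2 CPM among 13337 or 13338 named genes, are given as a description. Aldh1a1 was closest to Tspan11 (r = 0.97), Cdh19 (r = 0.97) and Omg (r = 0.97), the last of which encodes oligodendrocyte myelin glycoprotein. Without the 2 libraries farthest from the median, r was 0.73 for Tspan11, 0.90 for Cdh19 and 0.94 for Omg. For Aldh1a2 these were Aebp1 (r = 0.98), Cdh1 (r = 0.97) and Crhbp (r = 0.96), and for Crabp2 Lgr5 (r = 0.98), Agbl4 (r = 0.96) and Rnf6 (r = 0.96). Rbp4 shared Rnf6 (r = 0.93) and was nearest to Fam103a1 (r = 0.94) and B4gat1 (r = 0.94). Cyp26b1 was nearest to Wtap (r = 0.94), Ssbp3 (r = 0.93) and Fbxw11 (r = 0.93), Dhrs3 to Gjd2 (r = 0.96), Acot5 (r = 0.96) and Tango2 (r = 0.95), and Rdh10 to Sema4b (r = 0.89), Tsr2 (r = 0.85) and Cth (r = 0.84). Aldh1a3 was nearest to Psmd11 (r = 0.95), Gdpd1 (r = 0.94) and Elp4 (r = 0.94), and Crabp1 to Cdca4 (r = 0.98), Itga5 (r = 0.95) and Dach1 (r = 0.91). Among the members, Rbp4 and Crabp2 were the most alike pair (r = 0.92), with rho = 0.85. Aldh1a1 and Aldh1a2 had r = 0.83 but rho = 0.091, and cKO 2 was the lowest library of both. Next came Aldh1a2 with Crabp2 (r = 0.80, rho = 0.66) and Rbp4 with Cyp26b1 (r = 0.80, rho = 0.83), whereas r of Rdh10 with the other 8 was −0.54 to −0.035. Over all genes named here as most alike, r without the 2 farthest libraries was 0.6 to 0.97, lowest for Tsr2 with Rdh10, Tspan11 with Aldh1a1 and Agbl4 with Crabp2 (0.77). Values of different genes in a library share its depth and tissue content.

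No other listed gene of the pathway passed the test across all genes either. Of 40 further genes of retinoid transport and metabolism, 23 were tested, and 0 passed an edgeR adjusted p of 0.05 in either direction in any comparison (0% of all genes). At an unadjusted p under 0.05 there were 0 in cKO against Loxp, 3 in Hetero against Loxp and 2 in cKO against Hetero. In Hetero against Loxp these were Ttr, Rpe65, the retinoid isomerase of the visual cycle (log2 fold change 1.06, SE 0.474), and Adh1, an alcohol dehydrogenase (1.55, SE 0.707). In cKO against Hetero they were Ttr (−5.45, SE 1.22) and Rpe65 (−1.41, SE 0.482), all named after their values were seen. That p was reached by 2.53% of all genes in cKO against Loxp, 2.54% in Hetero against Loxp and 1.74% in cKO against Hetero. Counts per library were few, from 4 to 13 for Rpe65 and from 1 to 18 for Adh1, which limits what their values can show. DESeq2 called 1 of the 23, Ttr in Hetero against Loxp, and 0 of the receptors and responsive genes, and limma-voom called 0 of these genes. In cKO against Loxp 11 were higher and 12 lower, and the median log2 fold change was −0.00031. By p in that comparison the first were Cyp2s1, a cytochrome that can act on retinoic acid (log2 fold change −0.31, SE 0.183), Rdh14, a retinol dehydrogenase (−0.17, SE 0.101), and Ttr, transthyretin, the partner of RBP4 in plasma and a main product of choroid plexus (1.63, SE 1.23), each with edgeR adjusted p = 1. Ttr also came first when Hetero was set against Loxp (log2 fold change 7.08 with SE 1.35, edgeR adjusted p = 0.599), with 3.52 and 699 CPM in Hetero, against 0.558 to 4.40 CPM in Loxp. It was at 18.5, 10.5, 2.26 and 0.752 CPM in cKO. All 6 receptors were tested and 0 passed, with 3 higher and 3 lower in cKO against Loxp. At an unadjusted p under 0.05 there was 1, Rxra in cKO against Hetero, beside 1.74% of all genes. There Rxra was higher in cKO (log2 fold change 0.30, SE 0.140). All 4 cKO libraries lay above both Hetero libraries, as for 4.9% of all genes. By p in cKO against Loxp the first receptors were Rxra (0.21, SE 0.112), Rara (−0.15, SE 0.159) and Rxrg (−0.31, SE 0.602). In Hetero against Loxp it was Rarb (0.29, SE 0.376), each with edgeR adjusted p = 1.

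Genes known to respond to retinoic acid in various tissues gave 21 tested of 26, with 0 called in either direction, 12 higher and 9 lower in cKO against Loxp, and a median log2 fold change of 0.019. At an unadjusted p under 0.05 there were 2 in cKO against Loxp, Plaur and Egr1, and 1 in Hetero against Loxp, Egr1, beside 2.53% and 2.54% of all genes in these comparisons. Plaur, the urokinase receptor, had CPM of 1.5, 1.55, 1.4 and 1.17 in cKO, against 3.13, 2.10, 1.65 and 1.95 in Loxp, so the groups did not overlap, as for 1.54% of all genes. Plaur thus had a log2 fold change of −0.64 (SE 0.240). Egr1, also an activity-induced gene, stood at −0.43 in cKO (SE 0.152) and −0.58 in Hetero (SE 0.190) on the same scale, both against Loxp. Rai1 was at 0.10 in cKO against Loxp (SE 0.0891). Rarb, whose promoter is the textbook target of RAR and RXR, had CPM of 8.0, 2.72, 5.76 and 5.10 in cKO, against 6.84, 3.21, 7.51 and 4.11 in Loxp, with a log2 fold change of −0.0041 (SE 0.310). The edgeR adjusted p of these 4 genes was 1.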

How the data were processed

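Read counts per gene were deposited by the authors, and the submitters' processing notes name featureCounts 1.5.0-p3 and the mm10 build. FPKM per gene and library were also deposited, per the file headers, with log2 fold changes and p-values of the authors' own tests. No aligner, annotation or test tool is named in the labels or headers used here. Gene coordinates are those of GENCODE M21 (GRCm38). Counts were tested here with edgeR 4.0.16 in R 4.3.3 (TMM factors, filterByExpr, glmQLFit, glmQLFTest), with a mean per genotype over all 10 libraries and Benjamini-Hochberg adjustment over 18455 genes. CPM used TMM-scaled totals, log2 CPM a prior count of 2, and correlations 100000 permutations. The fit was tested on simulated data. In all 45 pairs of libraries the chi-square per gene (5.09 to 43.4) exceeded sampling noise.

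The members and gene lists were chosen with earlier results of these data known. All 9 members are named in each comparison. From each pathway list the genes with the 3 smallest p in cKO against Loxp and the smallest in Hetero against Loxp are named, and marker lists are given by summed levels. Rarb among responsive genes, Rpe65 and Adh1 were named beyond this rule. Alternatives were other scalings and filters, a fit on the compared groups alone, a block for replicate numbers, DESeq2 1.42.0, limma-voom (limma 3.58.1) and each library left out.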

Additional observations from a re-analysis of the deposited data

How the results depend on the processing

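Across the alternatives, 0 of the 9 members were called in any comparison, the smallest adjusted p being 0.0746 for Aldh1a3 in cKO against Hetero with no low-count filter. Of 213 member values under settings other than leaving out a library, 1 reversed, Aldh1a1 in cKO against Hetero, at −0.12 with the replicate block, and the cause was not tested. Leaving out 1 library at a time reversed 15 of 270 values.

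In cKO against Loxp the ranges were −0.26 to 0.019 for Rbp4, −0.10 to 0.10 for Dhrs3, −0.48 to 0.085 for Aldh1a2, −0.10 to 0.46 for Crabp1 and −0.50 to 0.37 for Crabp2. In Hetero against Loxp they were −0.13 to 0.24 for Dhrs3 and −0.37 to 0.13 for Crabp1. In cKO against Hetero they were −0.22 to 0.15 for Dhrs3 and −0.060 to 0.26 for Aldh1a1.

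Over all genes, the 0 calls of edgeR became 32 in cKO against Loxp, 68 in Hetero against Loxp and 39 in cKO against Hetero with no low-count filter, and 2, 17 and 3 with DESeq2, in the same order. Leaving out 1 library gave 0 to 1, 0 to 15 and 0 to 14 calls. In the comparisons with Hetero the highest count came without Hetero 1, which left only Hetero 2, the library with choroid plexus transcripts. A lone sample left in Hetero was assumed to vary like the other groups, so those calls rest on that library.

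The replicate block gave 1, 1 and 0 calls. With it Aldh1a3 stood at −0.82 in cKO against Loxp (SE 0.310, beside 0.479 without the block). The 0 members with an unadjusted p under 0.05 in that comparison were counted in the fit without the block. Deviations of same-numbered cKO and Loxp libraries correlated at 0.0419 to 0.322, and all 4 cKO libraries correlated best with the Loxp library of their own number, a hint from the data and not from the design.

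Aldh1a2, Aldh1a3, Crabp1 and Crabp2 had at most 80 counts per library, which limits what their values can show. At least 1 CPM in 4 libraries removed Crabp1 from the test. Levels per length from a length column were not run, since no such column was used here.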
